A study of Homo sapiens with 6 samples.

Results

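The genes described are 10 genes of the ATF4 stress response and of serine synthesis, namely ATF4, DDIT3, TRIB3, CHAC1, SESN2, DDIT4, ASNS, PSAT1, PHGDH and SHMT2. They were chosen by name among the 78932 genes of the count table, and all 10 were found in it. The T24 line was established from a human urothelial carcinoma of the bladder. T24 cells were transfected either with a non-targeting control siRNA (siNC, 3 replicates) or with siRNA against TRIM28 (siTRIM28, 3 replicates). Poly(A) RNA was sequenced from stranded libraries. The sample titles name no batch and do not say whether each replicate was a separate culture. The sources do not say which TRIM28 siRNA the sequenced cells received or how long after transfection they were collected, and all 6 libraries came from 1 cell line.

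ATF4 is a bZIP transcription factor at the centre of the integrated stress response. Kinases that sense amino acid shortage, heme deficiency, double-stranded RNA or unfolded protein in the endoplasmic reticulum phosphorylate eIF2α, which slows general translation while upstream open reading frames let the ATF4 mRNA be translated more. ATF4 then drives genes for amino acid synthesis and uptake, among them the enzymes that make serine from a glycolytic intermediate, and genes for feedback and cell death such as DDIT3 (CHOP), TRIB3 and CHAC1. Tumour cells are known to use this programme under nutrient stress. Since ATF4 is controlled largely at translation, its mRNA level does not give its protein level.

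ATF4 binds, with C/EBP partners, composite elements called CARE, whose core is TGATGNAA. The RefSeq promoter windows (GRCh38.p14, 250 bases before to 50 bases after a start site) held an entry for 9 of the 10 genes. Both strands were searched for this core and for TGACGTCA, the palindromic core of the cAMP response element. The CARE core was in a window of 2 of the 9 genes, ASNS and CHAC1, and in 3.62% of the 35116 windows in the table. The first value counts genes and the second counts windows, so they are not like for like. ATF4, DDIT3, TRIB3 and ASNS had more than 1 window each, and the other ASNS window held no match. The TGACGTCA core was in no window of these genes and in 1.85% of all windows. The 250 bases before the start site are printed below for ASNS and CHAC1, the 2 genes with a match, and for DDIT3 and DDIT4, the 2 that rose most on the log2 scale in siTRIM28. Capitals mark the CARE core, which lies 68 to 61 bases before the start site of the printed ASNS window and, as its reverse complement, 209 to 202 bases before that of CHAC1. The coordinates are chr7:97872409-97872658 (minus strand) for ASNS, chr15:40953221-40953470 (plus strand) for CHAC1, chr12:57520515-57520764 (minus strand) for DDIT3 and chr10:72273674-72273923 (plus strand) for DDIT4.
ASNS: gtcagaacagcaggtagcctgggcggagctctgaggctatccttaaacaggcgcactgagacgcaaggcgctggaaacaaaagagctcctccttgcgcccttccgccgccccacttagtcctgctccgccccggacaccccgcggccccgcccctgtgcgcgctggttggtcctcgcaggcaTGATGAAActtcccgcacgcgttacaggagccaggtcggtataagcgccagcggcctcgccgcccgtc
CHAC1: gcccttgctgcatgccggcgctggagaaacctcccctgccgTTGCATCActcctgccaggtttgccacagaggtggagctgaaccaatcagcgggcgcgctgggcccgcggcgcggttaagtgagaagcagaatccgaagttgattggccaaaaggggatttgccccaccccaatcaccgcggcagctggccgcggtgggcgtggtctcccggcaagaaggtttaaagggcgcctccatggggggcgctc
DDIT3: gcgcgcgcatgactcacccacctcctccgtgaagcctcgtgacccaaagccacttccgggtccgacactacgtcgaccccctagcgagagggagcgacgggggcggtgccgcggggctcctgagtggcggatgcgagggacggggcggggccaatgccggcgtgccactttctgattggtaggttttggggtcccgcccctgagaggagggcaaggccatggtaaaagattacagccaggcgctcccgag
DDIT4: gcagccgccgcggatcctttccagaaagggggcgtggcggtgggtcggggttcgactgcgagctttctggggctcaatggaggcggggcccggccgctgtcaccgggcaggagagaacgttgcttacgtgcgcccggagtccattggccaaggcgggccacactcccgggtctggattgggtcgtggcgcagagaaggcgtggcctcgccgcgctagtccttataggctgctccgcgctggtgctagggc
A match is a description of these letters only, and a window without one says nothing of ATF4 binding elsewhere.

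Total counts per library ran from 12989362 to 13942383 in siNC and from 11712623 to 14018052 in siTRIM28. TRIM28, the targeted gene, had 1382 to 1419 counts in siNC and 96 to 130 in siTRIM28, which is −3.54 on the log2 scale (standard error 0.0723, adjusted p = 1.03e-10). Adjusted p-values come from the quasi-likelihood test of edgeR, with the Benjamini-Hochberg method applied over 18474 tested genes, each of which reached 10 counts in 3 or more libraries. Levels are CPM, counts scaled to library size with TMM factors, and a standard error is on the log2 scale. Replicates were not equally close. The chi-square per degree of freedom was 1.08 for siNC replicates 1 and 2 and 1.22 for siTRIM28 replicates 2 and 3, where sampling noise gives 1, against 4.17 to 6.25 for the other pairs within a group. Both close pairs differed by more than sampling noise (chi-square p = 2.84e-14 and 2.67e-96). Over 20704 and 20698 genes such a test detects a very small excess, so it does not show that these libraries were separate cultures. The 6 libraries were counted as 6 samples, and whether they are independent was not tested. Values with each close pair summed into 1 sample are given where they end the call of a named gene or move the count of a list by over 1.5 times. For ATF3, NFE2L2, PSPH, PYCR1 and SLC3A2 only the counts of their lists are given for the summed pairs. Of the 14 epithelial and urothelial markers, KRT8 (104 CPM in siNC) and KRT18 (86.1 CPM) were well expressed, KRT20 and UPK1B had no count, and EPCAM, CDH1, KRT5 and GATA3 were under 1 CPM in siNC. The summed epithelial markers ran from 192 to 198 CPM in siNC and from 211 to 219 CPM in siTRIM28. KRT8 and KRT18 made up most of each sum, at 114 CPM (log2 fold change 0.14, adjusted p = 0.0354) and 91.2 CPM (0.08, 0.21) in siTRIM28. UPK1A (1.94, 5.48e-04), with 4 to 17 counts in siNC and 34 to 58 in siTRIM28, and KRT7 (0.56, 0.0126) also rose. Of those too low to be tested, EPCAM, CDH1, KRT5, KRT19, GATA3 and UPK3A had lower mean CPM in siTRIM28, and KRT13 and UPK2 higher. The 5 fibroblast markers summed to 1.16 to 2.16 CPM in siNC and 2.86 to 4.31 CPM in siTRIM28. Of these only COL1A1 was tested, and it rose from 0.932 ± 0.265 to 3.28 ± 0.635 CPM (1.78, 2.21e-04), while COL1A2, DCN and LUM had 0 to 2 counts in each library. The 3 endothelial markers summed to 0.433 to 0.504 and 0.714 to 1.01 CPM, with CDH5 at 0 throughout, and the 4 leukocyte markers to at most 0.314 CPM in any library. The part of these markers in the results that follow was not tested.

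Of the 10 genes, 6 rose in siTRIM28 (ATF4, DDIT3, SESN2, DDIT4, ASNS and PHGDH), 1 fell (SHMT2), 2 did not pass the test (TRIB3 and PSAT1) and CHAC1 was too low to be tested. With the close pairs summed, SESN2, ASNS and PHGDH lost their call. Among all genes tested, 21.3% were called higher and 20.5% lower. The median log2 fold change was 0.21 over the 9 tested members and 0.02 over all genes tested. The CPM of the groups did not overlap for 9 of the 10 genes, CHAC1 being the exception, and for 52% of all genes tested. The exact two-sided permutation test of log2 CPM gave p = 0.1 for each of these 9 genes, the smallest p that 3 libraries against 3 allow. In bulk RNA, a change in the number of cells that express a gene and a change in RNA per cell cannot be told apart.

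**Figure D1:**
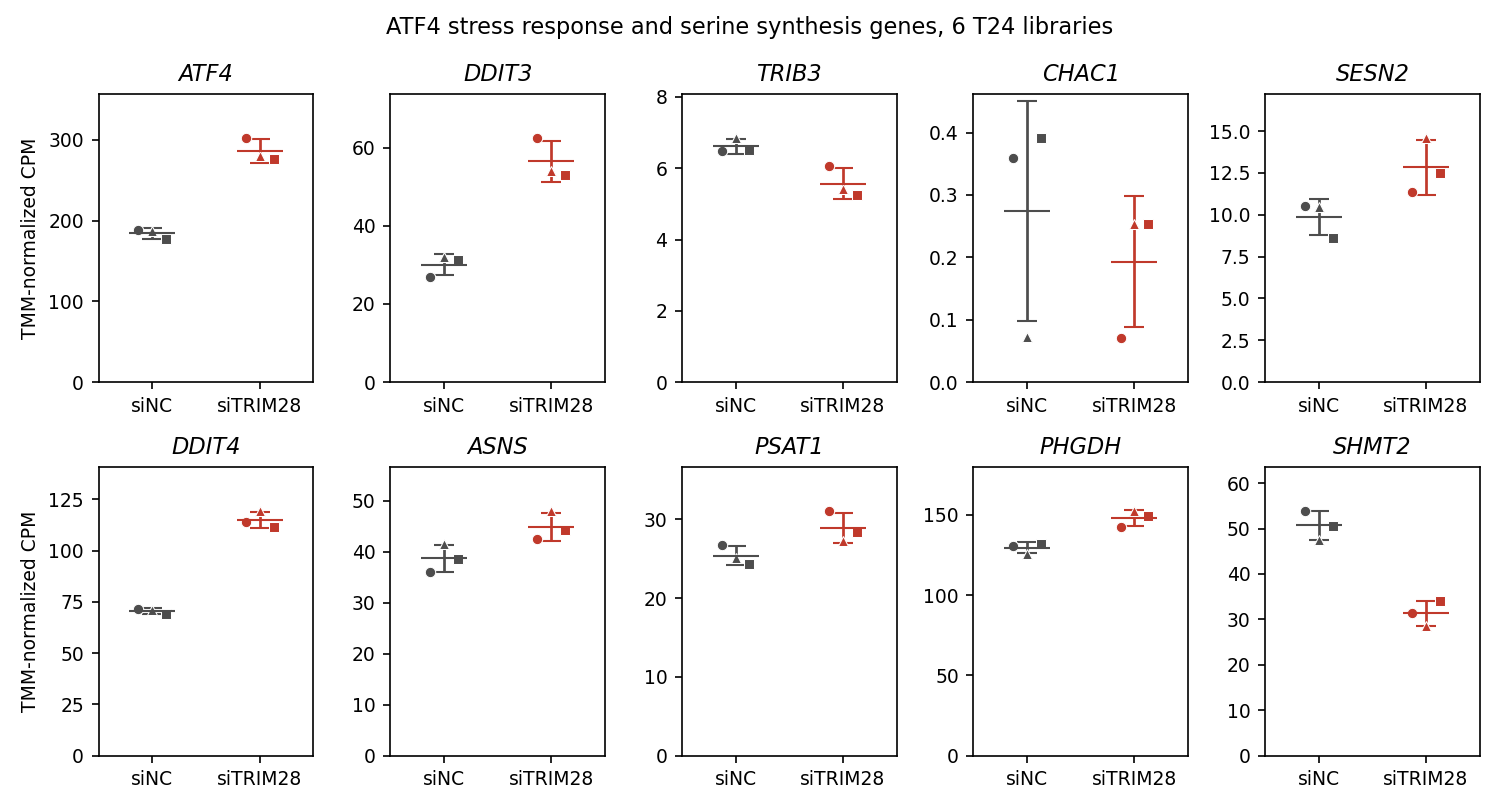
TMM-normalized CPM of each gene (vertical axis, from 0, with a scale of its own in each panel) in siNC (grey) and siTRIM28 (red). Circles, triangles and squares are replicates 1, 2 and 3, and bars are the mean ± SD of 3 libraries. ATF4, DDIT3 and DDIT4 lie higher and SHMT2 lower in all siTRIM28 libraries, with gaps wide against the spread, and CHAC1 lies under 0.4 CPM throughout.

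ATF4 (ENSG00000128272, chromosome 22, 39519695 to 39522602, plus strand, GRCh38) had 2625, 2591 and 2257 counts in siNC replicates 1 to 3 and 4242, 3313 and 3273 in siTRIM28 replicates 1 to 3. In CPM these were 189, 187 and 177 against 303, 280 and 276. All siTRIM28 libraries were above all siNC libraries, and siTRIM28 replicate 1 was the highest. The mean rose from 184 ± 6.48 to 286 ± 14.4 CPM (SD, n = 3), with a fitted log2 fold change of 0.64 (standard error 0.0478, edgeR adjusted p = 1.10e-06) or 1.55-fold with a 95% interval from 1.44 to 1.67. Processed copies of ATF4 can share its reads. The copies ATF4P3 (26 to 35 counts in siNC, 52 to 78 in siTRIM28) and ATF4P4 (18 to 25 and 31 to 48) were also higher in each siTRIM28 library, at counts that were small beside those of ATF4.

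DDIT3 (ENSG00000175197, chromosome 12, 57516588 to 57521737, minus strand) encodes CHOP, a C/EBP family factor that is induced by ATF4 and linked to stress-induced cell death. It had 374, 442 and 399 counts in siNC and 876, 640 and 627 in siTRIM28, or 26.9, 31.9 and 31.3 CPM against 62.6, 54.1 and 53.0 CPM. The lowest siTRIM28 library was well above the highest siNC library. The mean rose from 30.04 ± 2.72 to 56.5 ± 5.26 CPM, with a log2 fold change of 0.91 (standard error 0.0852, edgeR adjusted p = 6.07e-06) or 1.88-fold (95% interval 1.65 to 2.14). This was the largest rise among the 9 members tested. DDIT3 shares 982 bases of its span with MARS1, the methionyl-tRNA synthetase gene on the opposite strand, which rose by 0.59 on the log2 scale. It also spans MIR616 (6 to 17 counts in siNC, 35 to 56 in siTRIM28) and overlaps ENSG00000285133 on its own strand (50 to 56 and 82 to 139 counts). MBD6, on the opposite strand over 1028 bases of DDIT3, did not pass the test (233 to 254 and 173 to 242 counts, log2 fold change −0.15, edgeR adjusted p = 0.338). Whether the counting used strand is not given in the sources used here, and the part of these overlaps in the DDIT3 result was not tested.

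Among the genes of feedback and growth control, DDIT4 (ENSG00000168209, chromosome 10, 72273919 to 72275998, plus strand) rose most. It encodes REDD1, an inhibitor of mTORC1 signalling that many stresses induce. DDIT4 had 991, 986 and 878 counts in siNC and 1596, 1412 and 1319 in siTRIM28, or 71.3, 71.2 and 68.8 CPM against 114, 119 and 111 CPM. The libraries of each group were tightly spaced, and the groups were far apart. The mean rose from 70.5 ± 1.41 to 115 ± 4.003 CPM, with a log2 fold change of 0.70 (standard error 0.0484, edgeR adjusted p = 5.54e-07) or 1.63-fold (95% interval 1.51 to 1.75). DDIT4-AS1, annotated on the opposite strand over 2080 bases of DDIT4, had 134 to 149 counts in siNC and 199 to 219 in siTRIM28 (log2 fold change 0.64, edgeR adjusted p = 9.32e-05). Without knowledge of the strand setting, the reads of the 2 genes cannot be told apart.

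SESN2 (ENSG00000130766, chromosome 1, 28259518 to 28282491) encodes sestrin 2, a leucine-binding inhibitor of mTORC1. It had 146, 145 and 110 counts in siNC and 159, 173 and 148 in siTRIM28, or 10.5, 10.5 and 8.62 CPM against 11.4, 14.6 and 12.5 CPM. The groups did not overlap, but siTRIM28 replicate 1 lay close to siNC replicates 1 and 2. The log2 fold change was 0.37 (standard error 0.116, edgeR adjusted p = 0.0238). The adjusted p was 0.0643 by DESeq2, 0.0821 with the close pairs summed, 0.109 without siNC replicate 3, 0.122 without siTRIM28 replicate 2 and 0.059 without siTRIM28 replicate 3.

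TRIB3 (ENSG00000101255, chromosome 20, 362835 to 397559) encodes a pseudokinase that binds ATF4 and CHOP and limits their activity. It had 90, 95 and 83 counts in siNC and 85, 64 and 62 in siTRIM28, or 6.48, 6.86 and 6.51 CPM against 6.07, 5.41 and 5.24 CPM. The siTRIM28 libraries were all just below the siNC libraries. The log2 fold change was −0.24, with a 95% interval from −0.52 to 0.04 that includes 0 (edgeR adjusted p = 0.148). The upper end of this interval is a rise of 1.02-fold, which is below the lower ends of the intervals of ATF4 and DDIT3.

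CHAC1 (ENSG00000128965, chromosome 15, 40952962 to 40955822) encodes an enzyme that breaks down glutathione. It had 5, 1 and 5 counts in siNC and 1, 3 and 3 in siTRIM28. The groups overlapped, with 11 counts in all against 7. With genes of at least 1 count admitted to the fit, its log2 fold change was −0.53 with a 95% interval from −1.98 to 0.92 (edgeR adjusted p = 0.653), so that neither a fall nor a rise of moderate size was detectable at this depth.

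The 4 enzymes of amino acid synthesis did not move together. SHMT2 (ENSG00000182199, chromosome 12, 57229573 to 57234726, plus strand), the mitochondrial serine hydroxymethyltransferase that turns serine into glycine and a one-carbon unit, fell. It had 748, 658 and 646 counts in siNC and 440, 338 and 404 in siTRIM28, or 53.9, 47.5 and 50.6 CPM against 31.4, 28.5 and 34.1 CPM. Each siTRIM28 library was far below each siNC library. The mean went from 50.7 ± 3.16 to 31.4 ± 2.79 CPM, with a fitted log2 fold change of −0.69 (standard error 0.0770, edgeR adjusted p = 2.49e-05) or 0.619 of the siNC level (95% interval 0.551 to 0.696). ENSG00000276727, on the opposite strand over 626 bases of SHMT2, had 39 to 48 counts in siNC and 21 to 32 in siTRIM28.

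PHGDH (ENSG00000092621, chromosome 1, 119648411 to 119744213), which catalyses the first step of serine synthesis, rose slightly. Its counts were 1817, 1741 and 1685 in siNC and 1991, 1804 and 1770 in siTRIM28, or 131, 126 and 132 CPM against 142, 152 and 149 CPM. The gap between the groups was of about the size of the spread within siTRIM28. The log2 fold change was 0.19 (standard error 0.0452, edgeR adjusted p = 0.00504), and the adjusted p was 0.0808 with the close pairs summed. ENSG00000296692, on the opposite strand over 1268 bases of PHGDH, had 73 to 98 counts in siNC and 91 to 123 in siTRIM28 (log2 fold change 0.37, edgeR adjusted p = 0.0364), and its part in the PHGDH value was not tested.

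PSAT1 (ENSG00000135069, chromosome 9, 78297125 to 78330093) encodes the aminotransferase of the next step. It had 371, 348 and 310 counts in siNC and 435, 323 and 336 in siTRIM28, or 26.7, 25.1 and 24.3 CPM against 31.1, 27.3 and 28.4 CPM. The lowest siTRIM28 library was just above the highest siNC library. The log2 fold change was 0.19 (95% interval 0.03 to 0.35, edgeR adjusted p = 0.0538). This is nearly the value of PHGDH, whose smaller standard error put it past the threshold. Among the fits without a block, PSAT1 passed it with upper-quartile scaling (adjusted p = 0.0263), total counts (0.0394) and without siTRIM28 replicate 2 (0.0401).

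ASNS (ENSG00000070669, chromosome 7, 97851677 to 97872408, minus strand) encodes asparagine synthetase, the textbook target of ATF4, and carries the CARE core printed above. It had 501, 574 and 491 counts in siNC and 596, 568 and 523 in siTRIM28, or 36.1, 41.5 and 38.5 CPM against 42.6, 48.0 and 44.2 CPM. The lowest siTRIM28 library was close to the highest siNC library. The log2 fold change was 0.21 (standard error 0.0719, edgeR adjusted p = 0.0318). The adjusted p was 0.0886 by DESeq2, 0.0825 with the close pairs summed, and 0.161, 0.0736, 0.135 and 0.0707 without siNC replicate 1, siNC replicate 3, siTRIM28 replicate 2 and siTRIM28 replicate 3. Along nearly its whole span ASNS overlaps ENSG00000284707 on the same strand, which had 582 to 654 counts in siNC and 524 to 624 in siTRIM28 (log2 fold change 0.05), so how the counting split reads between the 2 genes bears on the ASNS value.

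**Figure D2:**
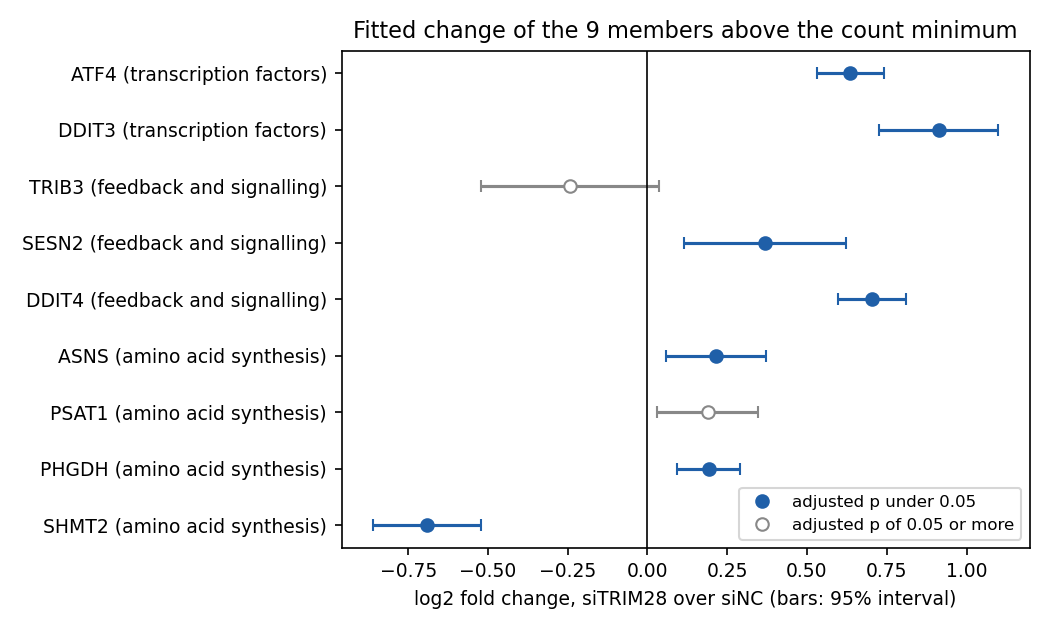
Fitted log2 fold change of siTRIM28 over siNC (horizontal axis) for the 9 genes tested, with 95% intervals from edgeR's fit. Filled points have an adjusted p under 0.05. DDIT3, DDIT4 and ATF4 lie between 0.64 and 0.91, PHGDH, PSAT1 and ASNS between 0.19 and 0.21, and SHMT2 at −0.69.

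Per length, in CPM per kilobase of the gene length given in the count table, the order in siNC was ATF4 (70.5 ± 2.48, SD, n = 3), DDIT4 (33.3 ± 0.667), DDIT3 (23.0 ± 2.08), PHGDH (14.1 ± 0.366), PSAT1 (11.5 ± 0.554), SHMT2 (11.0 ± 0.689), ASNS (7.90 ± 0.551), SESN2 (2.85 ± 0.312), TRIB3 (1.78 ± 0.0573) and CHAC1 (0.134 ± 0.0859). PSAT1 and SHMT2 did not differ beyond their spread. In siTRIM28 the first 5 places were unchanged, at 109 ± 5.52 for ATF4, 54.2 ± 1.89 for DDIT4, 43.2 ± 4.02 for DDIT3, 16.1 ± 0.571 for PHGDH and 13.1 ± 0.883 for PSAT1. SHMT2, at 6.83 ± 0.607, passed below ASNS, at 9.17 ± 0.567. The lengths are those of the count table, 9187 bases for PHGDH among them, and a length that includes exons rarely used in T24 lowers the value.

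**Figure D3:**
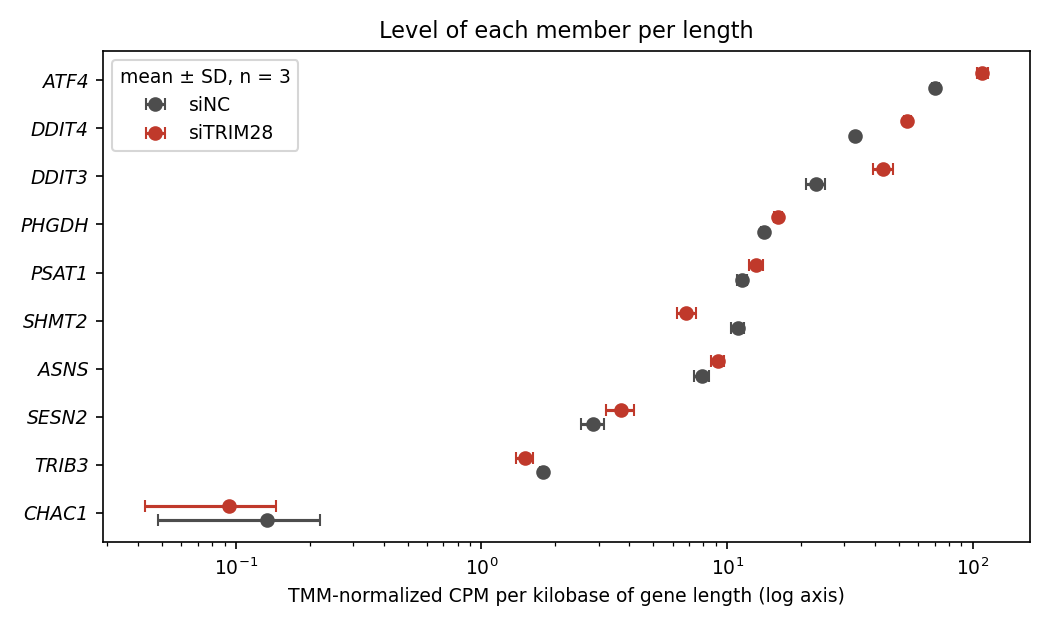
TMM-normalized CPM per kilobase of gene length (log axis) of each gene in siNC (grey) and siTRIM28 (red), as mean ± SD of 3 libraries, with genes ordered by their siNC level. ATF4 has the highest level in both groups and CHAC1 the lowest, and only SHMT2 and ASNS change places.

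Likeness to ATF4 was measured as the root mean square distance of log2 CPM, centred per gene, over the 6 libraries, among 11340 genes with a symbol and a mean of at least 50 counts. DDIT4 was the nearest of the other members (0.0637, rank 69) and DDIT3 followed at 0.171, while SHMT2 was the farthest at 0.671. The 3 nearest genes of all were NEAT1 (0.0195), TCF19 (0.0226) and PGK1 (0.0288), with log2 fold changes of 0.66, 0.64 and 0.65. The points are 6 libraries in 2 groups, so the distance is set mostly by the size of the difference between the groups.

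Other genes of the pathway were taken from 8 lists that hold 91 genes, 83 of them tested. Of these, 31 were higher, 27 were lower and 25 did not pass the test, with a median log2 fold change of 0.04. Among all genes tested, 21.3% were called higher and 20.5% lower, with a median of 0.02. Among the 16 genes of the eIF2α kinases, their relay and the phosphatase, 6 were higher and 6 lower. The higher count was 2 by DESeq2 and 3 with the close pairs summed, and the lower count was 6 in both. PPP1R15A (GADD34), the stress-induced subunit that directs the phosphatase to eIF2α, rose from 132 ± 1.26 to 264 ± 12.2 CPM (log2 fold change 1.00, standard error 0.0445, edgeR adjusted p = 2.25e-08). EIF2AK4 (GCN2), the kinase that senses uncharged tRNA, went from 106 ± 0.782 to 54.6 ± 1.82 CPM, a fall of 0.96 on the log2 scale (log2 fold change −0.96, edgeR adjusted p = 6.21e-08). IMPACT, an inhibitor of GCN2 activation, also fell (log2 fold change −0.85), as did EIF2B1, a subunit of the exchange factor that phosphorylated eIF2 blocks (−0.62). Of the other kinases, the heme-regulated EIF2AK1 fell (−0.33, edgeR adjusted p = 7.31e-04) and EIF2AK2 (PKR) rose (0.17, 0.0308), a call that was lost in 7 of the 15 alternatives. Its adjusted p was 0.141 by DESeq2, 0.105 with the close pairs summed, 0.124 with genes of at least 1 count admitted, and 0.07 to 0.148 without siNC replicate 1 or 3 or siTRIM28 replicate 2 or 3. EIF2AK3 (PERK) had 24.4 ± 0.693 CPM in siNC and 24.6 ± 1.49 in siTRIM28, and its log2 fold change of 0.02 had a 95% interval from −0.13 to 0.17.

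Among the bZIP partners and relatives of ATF4, 8 of 9 genes were tested, 3 were higher and 2 lower, with none lower once the close pairs were summed. CEBPB, which can bind CARE elements together with ATF4, rose from 25.5 ± 1.56 to 45.3 ± 3.60 CPM (log2 fold change 0.83). The stress coregulator NUPR1 rose from 1.23 ± 0.210 to 2.94 ± 0.501 CPM (1.26), at 13 to 20 counts in siNC and 30 to 49 in siTRIM28. The 2 called lower were ATF3 (log2 fold change −0.52, edgeR adjusted p = 0.0186) and NFE2L2 (−0.21, 0.0148). Among the other amino acid and one-carbon enzymes, 11 of 12 were tested, 5 were higher and 2 lower, with 1 lower once the close pairs were summed. CBS, which joins serine and homocysteine in transsulfuration, rose from 10.6 ± 0.226 to 21.0 ± 1.62 CPM (0.99, edgeR adjusted p = 2.00e-06). The 2 enzymes called lower were PSPH (log2 fold change −0.36, edgeR adjusted p = 0.0368) and PYCR1 (−0.52, 1.47e-04).

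Of the amino acid transporters, 9 of 10 were tested, 1 was higher and 3 lower, and 5 did not pass the test, while the median log2 fold change was 0.26, opposite in sign to the balance of calls. With the close pairs summed, 1 transporter was called lower. SLC7A5 (LAT1), which imports leucine and other large neutral amino acids, fell from 23.7 ± 2.73 to 9.79 ± 2.41 CPM (log2 fold change −1.26, edgeR adjusted p = 2.43e-05). The transporter called higher was SLC3A2 (log2 fold change 0.48, edgeR adjusted p = 0.0103). It had 39.4 to 41.2 CPM in siNC and 72.1, 47.7 and 49.7 CPM in siTRIM28 replicates 1 to 3. Of the 13 tRNA synthetase and tRNA export genes, 7 were higher and 4 lower. CARS1 for cysteine (0.93) and MARS1 for methionine (0.59) rose, and WARS1 for tryptophan fell from 38.2 ± 1.62 to 17.7 ± 0.215 CPM (−1.11).

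All 6 tested genes of the 9 secreted factors and other ATF4 targets were higher, with a median log2 fold change of 0.68. The shares over all genes tested were 21.3% higher and 20.5% lower. VLDLR, a lipoprotein receptor, rose by 0.85, CLGN, a chaperone of the endoplasmic reticulum, by 0.74 and HMOX1, the heme oxygenase, by 0.74. HMOX1 had 69 to 79 counts in siNC and 156, 98 and 91 in siTRIM28 replicates 1 to 3 (edgeR adjusted p = 0.00261). Without siTRIM28 replicate 1 its log2 fold change was 0.55. GDF15, FGF21 and ADM2 of this list did not reach the count minimum. In the other arms of the unfolded protein response the balance was the opposite, with 2 of 16 genes higher, 10 lower and a median of −0.22. ERN1 (IRE1α), the stress sensor, rose by 0.76 and DNAJB9, a cochaperone, by 0.72, while the cochaperones DNAJC3 (log2 fold change −0.67) and SDF2L1 (−0.80) fell. HSPA5 (BiP), the main chaperone of the endoplasmic reticulum, named here after its value was seen, fell as well (−0.38). Of 6 paralogs of the members, 4 were tested and TRIB1 rose (0.82), the other tested ones not passing the test. The lists differ in size, were chosen with earlier results of these data known and were not tested as sets.

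**Figure D4:**
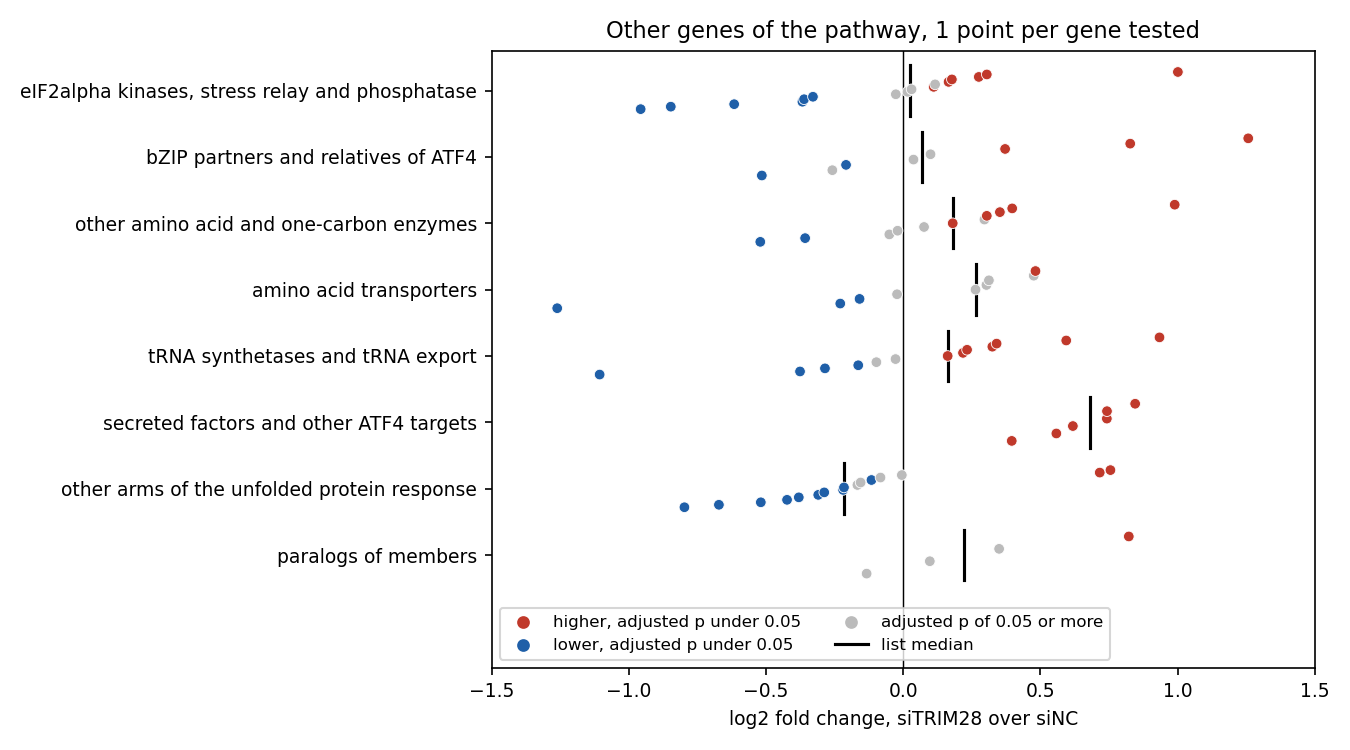
Log2 fold change of siTRIM28 over siNC (horizontal axis) for the 83 tested genes of the 8 pathway lists, 1 point per gene, coloured by direction where the adjusted p is under 0.05. Black bars are list medians, which run from −0.22 for the other arms of the unfolded protein response to 0.68 for the secreted factors and other ATF4 targets.

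The seed of an siRNA can lower transcripts that pair with it in their 3′ UTR. The duplex part of both TRIM28 siRNAs of the study matched a TRIM28 transcript over its whole length. A match to the seed of siTRIM28-2 was in the longest annotated 3′ UTR (GENCODE v29) of none of the 10 genes, SHMT2 included, and of 19.6% of 11728 tested genes. A match to the seed of siTRIM28-1 was in 1 of the 10, SESN2, and in 16.8% of the tested genes. The searched 3′ UTRs of the 10 genes ran from 83 bases in ATF4 and 221 in DDIT3 to 1776 in SHMT2. A short 3′ UTR has less room for a match, and neither these shares nor the medians that follow were adjusted for length. The median log2 fold change of all genes with and without a match was −0.16 and 0.01 for siTRIM28-2, and −0.04 and −0.01 for siTRIM28-1. Among the pathway genes looked up by name, SLC7A5, which fell, and VLDLR, which rose, each had 1 match to the siTRIM28-2 seed, and EIF2AK4 had none. DNAJB9, ERN1, EIF2AK2 and VLDLR, all called higher, each had 1 match to the siTRIM28-1 seed. CARS1, MARS1 and WARS1 were not found in this annotation by these symbols, so they were not searched. HSPA5, ATF3, NFE2L2, PSPH, PYCR1 and SLC3A2 were not looked up by name.

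**Figure D5:**
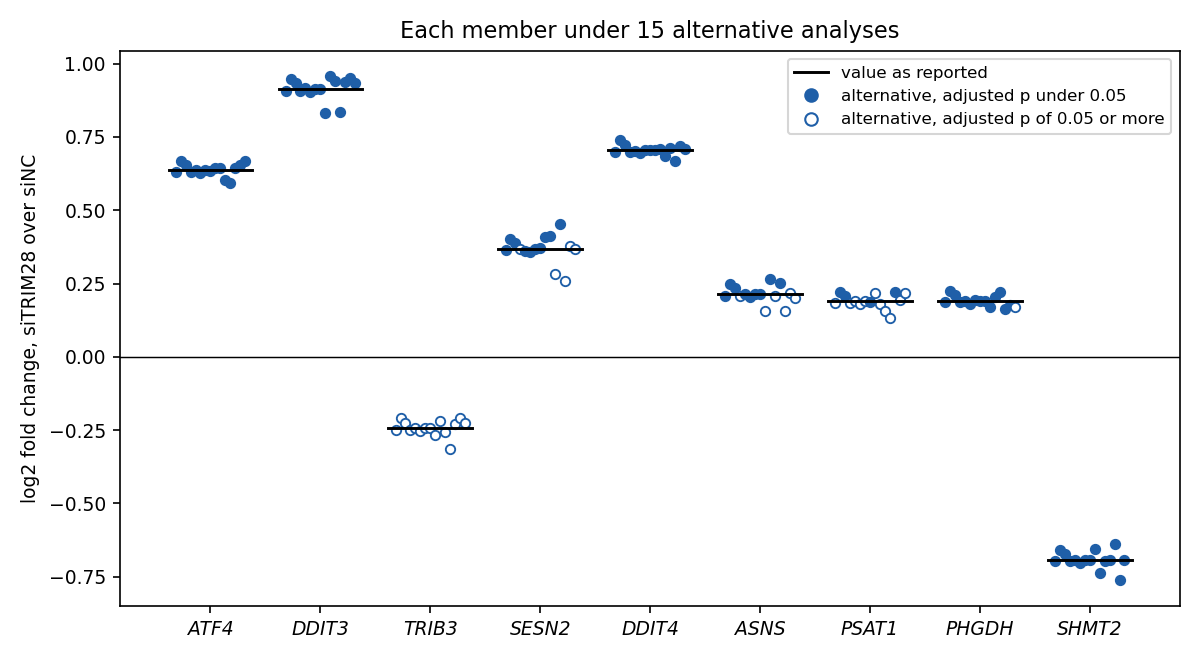
Log2 fold change of siTRIM28 over siNC (vertical axis) of each tested gene as reported (black line) and under 15 alternative scalings, tests, filters and choices of libraries (points, filled where the adjusted p is under 0.05). ATF4, DDIT3, DDIT4 and SHMT2 are filled in all 15, TRIB3 in none, and SESN2, ASNS, PSAT1 and PHGDH in some.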

How the data were processed

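The deposited values are unnormalized read counts for 78932 genes of GRCh38, with 1 column for each of 6 libraries. Per the submitters' processing notes, reads were handled with fastp 0.23.1, STAR 2.7.6a and featureCounts. The annotation release, the strand setting and the handling of duplicate reads are not given in the sources used here. A second deposited table, RPKM of genes that the authors selected, was not used.

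Counts were scaled by TMM and compared with edgeR 4.0.16 (glmQLFit, glmQLFTest, condition as the only term) in R 4.3.3, for 18474 genes that reached 10 counts in 3 or more libraries, at an adjusted p under 0.05. Standard errors were taken as |log2 fold change| / √F. Permutation tests used log2 CPM with a prior count of 2. The common biological coefficient of variation was 0.0733. On data simulated from these libraries, 153 of 200 genes changed by 0.8 (log2) were recovered (76.5%), and 91.8% of the 146 with at least 50 counts, while 15 unchanged genes were called. The simulated libraries were drawn independently, without the close pairs of the data. These rates therefore do not cover libraries that are not independent. Recovery among genes of at least 50 counts was made the criterion after the overall share had fallen short of a first one.

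The members and lists were chosen with earlier results of these data known. Genes named from a list had an adjusted p under 0.05 and a log2 change of 0.58 or more in size, at most 3 in each direction, and the eIF2α kinases were named in any case. ATF3, NFE2L2, PSPH and PYCR1 fell by less than 0.58 and were named as the genes called lower in their lists. SLC3A2 rose by less than 0.58 and was named as the transporter called higher. The search for siRNA seeds was added after the data were seen. Alternatives were 3 other scalings (RLE, upper quartile, total counts), the tests of DESeq2 1.42.0 and limma-voom (limma 3.58.1), 2 other filters, a replicate block, omission of each library, close pairs summed, and stricter thresholds. Figures were drawn with matplotlib 3.10.9 in Python 3.11.15.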

Additional observations from a re-analysis of the deposited data

How the results depend on the processing

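ATF4, DDIT3, DDIT4 and SHMT2 kept their direction and stayed past the threshold in all 15 alternatives, with log2 fold changes from 0.59 to 0.67, 0.83 to 0.96, 0.67 to 0.74 and −0.76 to −0.64. TRIB3 stayed short of it in all 15 (−0.31 to −0.21). SESN2 lost its call in 5, ASNS in 6 and PHGDH in 1, and PSAT1 gained one in 4. No member changed direction. The 6 members called higher became 3 with the close pairs summed and 3 when a log2 change of 0.58 or more in size was also required, the latter by construction. The cause of the former was not tested beyond the smaller number of samples. With each library left out, 4 to 6 were called higher. The genes called in all, 7723, became 3144 at that fold threshold and otherwise 5393 to 8130. Upper-quartile scaling put 56.6% of calls on the higher side, against 51.1%.

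Same-numbered libraries deviated with correlations of 0.05, −0.01 and 0.04, and libraries of unlike number with −0.07 to 0.04. These values do not show whether the numbers pair the samples. The fit with the replicate block called 7910 genes and 7 members higher, PSAT1 (0.19, adjusted p = 0.0347) being added, and not every library correlated best with its own number.

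Of 27 other named genes followed through the 15 alternatives, 25 changed neither direction nor call. ATF3, NFE2L2, PSPH, PYCR1 and SLC3A2 were followed only in the list counts. EIF2AK2 lost its call in 7, and EIF2AK3 ran from −0.0271 to 0.0552 with a library left out, turning negative without siNC replicate 3 and without siTRIM28 replicate 2. Several list counts were moved by over 1.5 times. The eIF2α list called higher went from 6 to 2 by DESeq2 and 3 with the close pairs summed. The enzymes called lower went from 2 to 1 in 9 alternatives, among them each omission of a library but siTRIM28 replicate 1. The bZIP genes called lower went from 2 to 0 without siNC replicate 2 or siTRIM28 replicate 3, with the close pairs summed and at an adjusted p under 0.01, and to 1 without siTRIM28 replicate 2. The transporters called lower went from 3 to 1 without siNC replicate 1, with the close pairs summed and at 0.01, and those called higher from 1 to 2 without siTRIM28 replicate 3 and to 0 at 0.01. The enzymes called higher went from 5 to 3 without siNC replicate 2, by DESeq2 and at 0.01, and the paralogs called higher from 1 to 2 without siNC replicate 3.

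Precision is limited by 3 libraries per group and, for CHAC1, TRIB3 and NUPR1, by low counts.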
